A study of Mus musculus with 11 samples.

Results

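Milk gene expression varied widely among 11 mammary tumours profiled on microarrays, and the tumours were compared here by how much RNA of beta-casein they held. The arrays were ranked by, and the classes chosen by, the log2 intensity of Csn2, which encodes beta-casein. The 5 highest arrays (casein-high) were set against the 5 lowest (casein-low). The middle array was left out, so 10 of the 11 arrays entered the comparison. Csn2 chose the groups, so its difference is a description and carries no test. Csn2 was also removed from the genome-wide comparison. Because a measured gene and no treatment set the groups, a difference between them says only that a gene's intensity went with the Csn2 split in these tumours.

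All tumours arose spontaneously in female PyMT mice and were taken at 12 weeks of age. The PyMT transgene encodes middle T, an oncoprotein of polyoma virus, and gives rise to mammary tumours. The promoter that drives it was not given in the sources used here. In the PyMT/SIRT6 mice the transgene was combined with the Sirt6BAC allele, a Sirt6 transgene carried on a bacterial artificial chromosome that adds functional SIRT6, whereas the PyMT mice were wild type for that allele. There were 6 PyMT and 5 PyMT/SIRT6 arrays, each from 1 tumour sample. The labels leave unsaid whether any tumours shared a mouse. P-values therefore measure only the spread between these samples, which may in part be technical. Strain background and reproductive history were not given in the sources used here. Sirt6 intensity lay between 7.64 and 7.88 (log2) in the PyMT arrays and between 8.19 and 8.64 in the PyMT/SIRT6 arrays, so the groups labelled by genotype did not overlap for it.

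The secretory cells of the mammary gland make the caseins, the whey proteins alpha-lactalbumin and whey acidic protein, and milk fat. Prolactin drives this programme through JAK2 and the transcription factor STAT5, together with glucocorticoids and factors such as ELF5, and many milk genes are silent or low outside pregnancy and lactation. PyMT tumours start in luminal epithelium, the lineage that holds the secretory cells. The casein genes lie side by side in a cluster on mouse chromosome 5.

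The upstream sequences of 4 milk genes are shown. Csn2 set the order of tumours, Csn1s1 followed much the same order, and Wap and Lalba did so less closely or not at all. Each is the 250 bases before the RefSeq transcription start (assembly GRCm38.p6), written 5′ to 3′ on the gene's strand, and capitals mark matches to TTCNNNGAA, the letters of a STAT5-type site. These fixed letters read the same on both strands.
Csn2: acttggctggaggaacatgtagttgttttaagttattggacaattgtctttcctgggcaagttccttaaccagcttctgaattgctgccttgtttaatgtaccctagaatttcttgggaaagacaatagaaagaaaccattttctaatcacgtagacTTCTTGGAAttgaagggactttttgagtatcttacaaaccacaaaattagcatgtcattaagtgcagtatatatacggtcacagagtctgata
Csn1s1: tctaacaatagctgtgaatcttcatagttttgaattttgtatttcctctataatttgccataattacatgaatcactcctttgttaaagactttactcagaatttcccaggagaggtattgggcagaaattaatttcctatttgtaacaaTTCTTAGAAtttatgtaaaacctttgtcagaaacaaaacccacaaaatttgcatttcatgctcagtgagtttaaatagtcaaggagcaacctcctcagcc
Wap: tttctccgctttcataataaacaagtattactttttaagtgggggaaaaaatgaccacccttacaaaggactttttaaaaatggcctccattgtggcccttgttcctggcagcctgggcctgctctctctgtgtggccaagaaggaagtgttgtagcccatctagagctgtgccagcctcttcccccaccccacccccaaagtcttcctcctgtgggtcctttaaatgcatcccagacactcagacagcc
Lalba: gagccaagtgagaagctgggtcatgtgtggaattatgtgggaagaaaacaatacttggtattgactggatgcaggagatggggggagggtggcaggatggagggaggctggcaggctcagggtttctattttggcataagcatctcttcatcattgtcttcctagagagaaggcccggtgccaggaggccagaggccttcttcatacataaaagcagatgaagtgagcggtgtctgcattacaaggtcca
The Csn2 window is chr5:87699426-87699675 on the minus strand and the Csn1s1 window is chr5:87665958-87666207 on the plus strand. Wap lies at chr11:6638650-6638899 and Lalba at chr15:98482684-98482933, both on the minus strand. Csn2 holds TTCTTGGAA starting 93 bases before the start and Csn1s1 holds TTCTTAGAA starting 100 bases before it. The Wap and Lalba windows hold 0 matches, and bases further upstream were not searched. Of 32851 mouse promoter windows of this length 2306 hold the motif (7.02%), and a match describes letters only. The 4 genes were picked after their intensities were seen. Of 18 milk list genes with a probe, Csn2 not counted, 14 had a window. Of these 2 hold the motif, Csn1s1 and Glycam1 (14.3%, beside 8.13% of all genes with a window). A part of the motif in the order of tumours was not tested.

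Csn2 ranged over 6.45 log2 units between tumours, an 87.6-fold spread of intensity. In the casein-low arrays, in order of rising Csn2, its log2 intensity was 7.23 in PyMT replicate 3, 7.83 in PyMT replicate 4, 8.48 in PyMT replicate 2, 8.83 in PyMT replicate 5 and 10.08 in PyMT/SIRT6 replicate 1. In the casein-high arrays it was 10.50 in PyMT replicate 6, 11.40 in PyMT/SIRT6 replicate 5, 12.46 in PyMT replicate 1, 12.96 in PyMT/SIRT6 replicate 4 and 13.68 in PyMT/SIRT6 replicate 3. The middle array, PyMT/SIRT6 replicate 2, stood at 10.36. Lists of 5 values given below for a class keep this order. The arrays just inside the classes, at 10.08 and 10.50, lay only 0.42 apart, so the split divides a graded series and not separate clusters.

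Group means of Csn2 were 12.20 ± 1.26 in casein-high and 8.49 ± 1.08 in casein-low arrays (SD, n = 5 each), or geometric mean intensities of 4710 and 359.2, a 13.1-fold difference. The single Csn2 probe gave all of these values. Genotype was unevenly divided, since 4 of the 5 casein-low arrays but 2 of the 5 casein-high arrays were PyMT. Csn2 itself overlapped between genotypes, since PyMT arrays spanned 7.23 to 12.46 and PyMT/SIRT6 arrays 10.08 to 13.68. Each comparison was therefore repeated with genotype as a covariate.

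**Figure D1:**
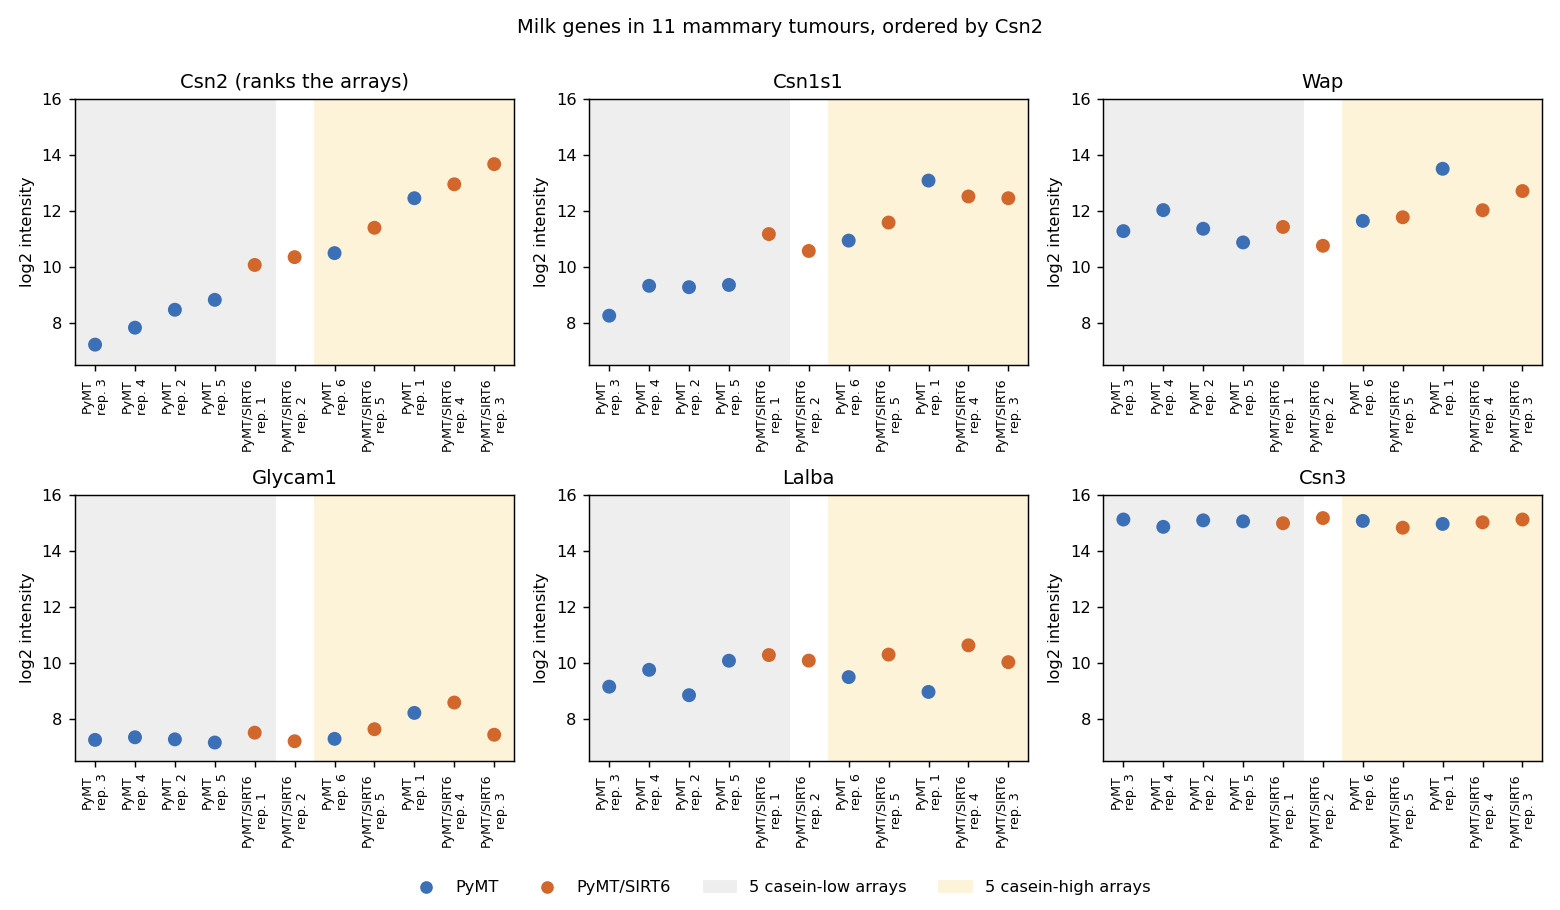
Log2 intensity (vertical axis) of 6 milk genes in each of the 11 tumours, ordered from left to right by Csn2. Each point is 1 array, coloured by genotype, and shading marks the 5 casein-low and 5 casein-high arrays. Csn1s1 broadly follows the order of Csn2, while Lalba overlaps between the classes and Csn3 stays near 15 on every array.

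Csn1s1, the alpha-S1-casein gene next to Csn2, showed the largest difference of any tested feature. It stood at 8.26, 9.33, 9.28, 9.36 and 11.18 (log2) in the casein-low arrays and at 10.95, 11.59, 13.09, 12.52 and 12.46 in the casein-high arrays. The classes overlapped only through PyMT/SIRT6 replicate 1, whose 11.18 exceeded the 10.95 of PyMT replicate 6. Casein-high exceeded casein-low by 2.64 ± 0.50 (log2, limma standard error, 95% interval 1.56 to 3.72), or 6.23-fold, and by 2.26 ± 0.49 with genotype as a covariate. The order also held inside the PyMT arrays, where Csn1s1 reached at most 9.36 in the 4 casein-low tumours and at least 10.95 in the 2 casein-high tumours. The other 2 probes of Csn1s1 were dim and differed by -0.03 and 0.01. With Csn2 entered as a continuous measure over all 11 arrays, Csn1s1 was the only feature to pass the adjusted threshold in limma (2.64 per casein-high minus casein-low step, adjusted p = 0.000275). With genotype added it was again the only such feature (2.75, adjusted p = 0.00645).

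The other milk proteins followed Csn2 more weakly. Wap, the whey acidic protein gene, stood at 11.29, 12.04, 11.37, 10.88 and 11.43 in casein-low and at 11.65, 11.78, 13.51, 12.03 and 12.72 in casein-high arrays. It was high in PyMT replicate 1 and PyMT/SIRT6 replicate 3, while the other 3 casein-high arrays lay below the highest casein-low array. The difference was 0.94 ± 0.33, and 1.03 ± 0.37 with genotype. Glycam1, a mucin-like glycoprotein of milk, stood near the dim end at 7.25, 7.34, 7.27, 7.16 and 7.51 in casein-low arrays. It was at 7.29, 7.63, 8.21, 8.58 and 7.43 in casein-high arrays, with PyMT/SIRT6 replicate 4 and PyMT replicate 1 above the rest and a difference of 0.53 ± 0.21. The intensity filter asked for a mean log2 intensity of 7.309 over all arrays. Glycam1 passed it only because of its higher arrays, as its casein-low mean was 7.305. Folr1, a folate receptor, differed by 0.47 ± 0.22, and by 0.27 ± 0.20 with genotype.

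Lalba, which encodes the alpha-lactalbumin subunit of lactose synthase and is a usual marker of full secretory differentiation, did not divide the classes. Its values were 9.15, 9.75, 8.85, 10.08 and 10.28 in casein-low and 9.49, 10.30, 8.96, 10.63 and 10.03 in casein-high arrays. The ranges nearly coincided, and PyMT replicate 1, with the highest Csn1s1, had one of the lowest Lalba values. The difference was 0.26 ± 0.33 (95% interval -0.47 to 0.99), and -0.13 ± 0.25 with genotype. Lalba was instead higher in PyMT/SIRT6 arrays, where its values were 10.03 or more, than in PyMT arrays, where they were 10.08 or less. It was also higher in the 4 arrays with the highest skeletal muscle marker level, at 10.08 to 10.63, than in the other 7, at 8.85 to 10.08. Those 4 arrays (PyMT replicate 5 and PyMT/SIRT6 replicates 1, 4 and 5) were divided 2 to 2 between the classes, and the part of muscle tissue in the Lalba values was not tested. The name casein-high is therefore used for the Csn2 order alone and not for secretory state.

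Csn3, the kappa-casein gene, was between 14.83 and 15.13 in both classes, near the top of the intensity scale. Its difference was -0.02 ± 0.07. Its other probes, with means of 14.06 and 8.44, differed by 0.16 and 0.01. Whether the brightness of the probe limits its difference was not tested. The milk fat globule protein gene Mfge8 (-0.06 ± 0.15, and 0.11 ± 0.11 with genotype) and the transferrin gene Trf (-0.12 ± 0.09) were also bright. Over both classes Mfge8 ran from 14.38 to 15.18 and Trf from 14.62 to 15.02. Csn1s2b, another casein, differed by 0.23 ± 0.24 (0.05 ± 0.24 with genotype) and was highest in PyMT/SIRT6 replicate 3 at 9.45. Ltf, which encodes lactoferrin, was at 10.87 in PyMT replicate 3 and between 13.51 and 14.99 in the other 9 arrays compared, and its difference was 0.55 ± 0.60. Muc1 (-0.20 ± 0.21) and the immunoglobulin transporter gene Pigr (-0.25 ± 0.26) overlapped between the classes. Wfdc18 (0.18 ± 0.12), Tfrc (0.23 ± 0.20), Cel (0.13 ± 0.10) and Ceacam10 (0.05 ± 0.04) overlapped too. Csn1s2a and Lpo lay under the intensity filter in the comparison, with levels of 7.18 to 7.66.

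Counting them together, 18 genes of a milk protein list had a probe and 16 were tested. Of these 11 were higher in casein-high and 5 lower, the median difference was 0.20 (0.13 with genotype), and 0 were without overlap between the classes. Over all 14726 tested features 49.4% were higher and the median difference was -0.0011. The list was written knowing that these tumours differ in milk genes, so it is a description of the split and not support for it.

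Across the array no feature passed the threshold. Of 14726 features, 0 (0%) had an adjusted p under 0.05 in either direction by limma with Benjamini-Hochberg adjustment, and the lowest adjusted p was 0.601, shared by 376 features. Before adjustment, 488 features were higher (3.31%) and 673 lower (4.57%) in casein-high arrays with a p under 0.05, together 1161 (7.88%). With genotype as a covariate the counts were 0 by adjusted p (lowest 0.936) and 330 higher (2.24%) and 405 lower (2.75%) by unadjusted p, together 735 (4.99%). All 5 casein-high arrays lay above all 5 casein-low arrays for 76 features (0.516%) and below them for 116 (0.788%), together 1.3% of the features. Only 4 features differed by more than 1 log2 unit. They were Csn1s1, the chemokine genes Ccl9 and Ccl8 (1.05 ± 0.38 for Ccl8, or 0.58 ± 0.27 with genotype), and Mup5, a member of the closely related major urinary protein family (1.26 ± 0.78), and Ccl8 and Mup5 are named after their values were seen. None of the genes named below therefore passed the test, and their values show which genes stood nearest to the Csn2 split.

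**Figure D2:**
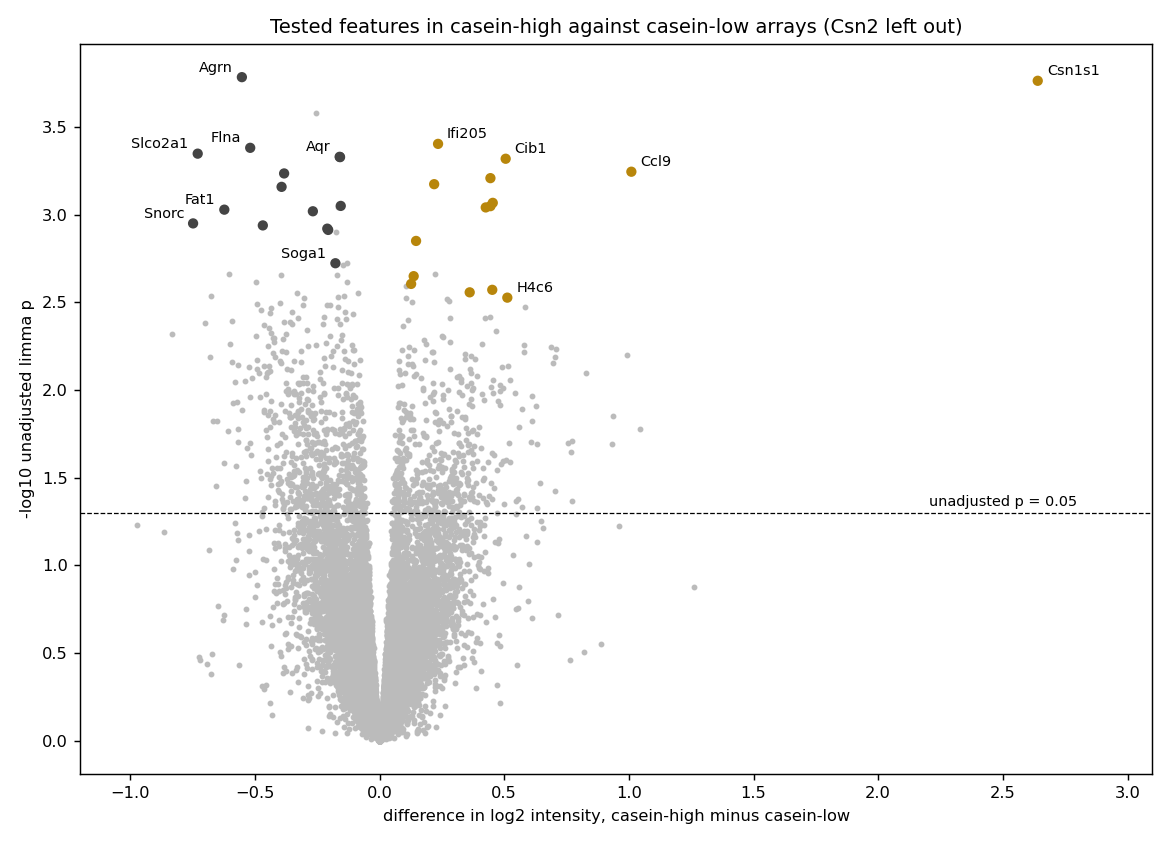
Difference in log2 intensity between casein-high and casein-low arrays (horizontal axis) against -log10 of the unadjusted limma p (vertical axis) for the 14726 tested features. Coloured points are the 30 genes named as leading and the dashed line is an unadjusted p of 0.05. Csn1s1 lies alone at the right, and 0 points pass after adjustment.

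The 15 named genes with the smallest unadjusted p on the casein-high side were Csn1s1 and 14 others, among them the chemokine genes Ccl9, Ccl11 and Ccl12. Ccl9, a chemokine of myeloid cells, stood at 8.78, 8.84, 8.54, 8.55 and 9.43 in casein-low and at 10.01, 9.92, 9.44, 10.44 and 9.38 in casein-high arrays. Only PyMT/SIRT6 replicate 1 reached into the casein-high range, and the difference was 1.01 ± 0.22 (2.01-fold), or 0.85 ± 0.22 with genotype. Ccl11, which encodes eotaxin, differed by 0.44 ± 0.10 and Ccl12, another chemokine, by 0.45 ± 0.10, each without overlap. Saa3, an acute phase apolipoprotein, lay between 7.82 and 8.26 in casein-low and between 8.49 and 8.79 in casein-high arrays, a difference of 0.44 ± 0.10. Slc11a1, a metal transporter of phagocytes, lay between 9.01 and 9.32 in casein-low and between 9.38 and 9.74 in casein-high arrays, a difference of 0.43 ± 0.10. Both genes separated the classes in all 10 arrays.

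Cib1, a calcium and integrin binding protein gene, was the brightest of this side after Csn1s1. It stood at 10.57, 10.41, 10.20, 10.25 and 10.48 in casein-low and at 10.80, 10.88, 11.10, 10.80 and 10.87 in casein-high arrays. Every casein-high array lay above every casein-low one, with a difference of 0.51 ± 0.11 in both fits (0.51 ± 0.12 with genotype). Ly6c1, a surface protein of leukocytes and endothelium, differed by 0.45 ± 0.12, the class Ib histocompatibility gene H2-M3 by 0.36 ± 0.10, and the histone gene H4c6, one of many near-identical H4 genes, by 0.51 ± 0.14. Ly6c1 and H4c6 overlapped between the classes, whereas H2-M3 did not. Among PyMT/SIRT6 arrays H4c6 averaged 8.80 in casein-high and stood at 8.80 in the only casein-low array. Differences of 0.13 to 0.23 were seen for Ifi205, an interferon-inducible gene, Samsn1, an adaptor of blood cells, Arhgap42, Tmed5, a cargo protein of the early secretory pathway, and Hoxc4, a homeobox gene. These 5 were dim, with both class means under 8, a range where unsubtracted background understates a change in RNA. The casein-low means of Ifi205 (7.297), Tmed5 (7.244) and Hoxc4 (7.297) lay under the filter's mean of 7.309. These genes were thus tested only because of their higher arrays, and their place here is no support for the split. Other probes of Ifi205 differed by -0.03 and -0.02, of Tmed5 by -0.01 and of Arhgap42 by -0.002.

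On the casein-low side Agrn had the smallest unadjusted p, followed by Flna and Slco2a1. Agrn, the gene of the basement membrane proteoglycan agrin, stood at 11.99, 11.88, 12.18, 12.23 and 11.88 in casein-low and at 11.48, 11.34, 11.47, 11.59 and 11.53 in casein-high arrays. There was no overlap, and the difference was -0.55 ± 0.10 (-0.52 ± 0.12 with genotype). Flna, which encodes the actin crosslinker filamin A, stood at 8.90, 8.85, 8.81, 9.05 and 8.45 in casein-low and at 8.25, 8.29, 8.23, 8.31 and 8.39 in casein-high arrays, a difference of -0.52 ± 0.11. PyMT/SIRT6 replicate 1 was the casein-low array closest to the casein-high range. Fat1, an atypical cadherin, differed by -0.62 ± 0.14 and Epha2, a receptor of ephrins, by -0.39 ± 0.09.

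Slco2a1, the prostaglandin transporter gene, stood at 9.60, 9.52, 10.08, 10.26 and 9.98 in casein-low and at 9.36, 9.24, 9.15, 9.19 and 8.86 in casein-high arrays. The classes did not overlap, the difference was -0.73 ± 0.15, and 2 of its other 3 probes differed by -0.51 and -0.54 while the third, a dim one, differed by 0.02. Snorc, a small chondroitin sulphate proteoglycan gene, had the largest difference of these 15 genes at -0.75 ± 0.18, with PyMT replicate 3 highest at 9.81. Mbtps1, the site-1 protease that activates SREBP and ATF6, differed by -0.38 ± 0.08, and the ribosomal protein gene Rpl22 by -0.47 ± 0.11. Flt1, a receptor of vascular endothelial growth factor, differed by -0.27 ± 0.06. Aqr, a splicing helicase gene, Myo7a, an unconventional myosin gene, and Adamts15, a secreted metalloprotease gene, each differed by -0.16, and Cspg5, C1rl and Soga1 by -0.21, -0.21 and -0.18. The casein-high means of Myo7a (7.247) and Adamts15 (7.260) lay under the filter's mean of 7.309. They were tested only because of their higher arrays, and their place here is no support for the split.

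Over both sides the unadjusted p of the 30 genes ran from 0.000164 to 0.00297, and 11 of the 15 higher and 12 of the 15 lower genes were without overlap. This is what the choice by p selects, against 0.516% and 0.788% of all features. With genotype as a covariate all 30 had the same sign and an unadjusted limma p of at most 0.013. The arrays were those used to choose the genes, so this is no separate support. Of the 30, 12 were dim (5 higher, 7 lower). Another probe existed for 18 genes, and 23 of these 33 other probes had the same sign as the brightest one. Promoter windows were in the RefSeq table for 14 of the 15 higher genes, of which 2 (Csn1s1 and H2-M3) hold TTCNNNGAA. For the lower genes 11 had a window and 0 hold it, beside 8.13% of all genes in that table.

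**Figure D3:**
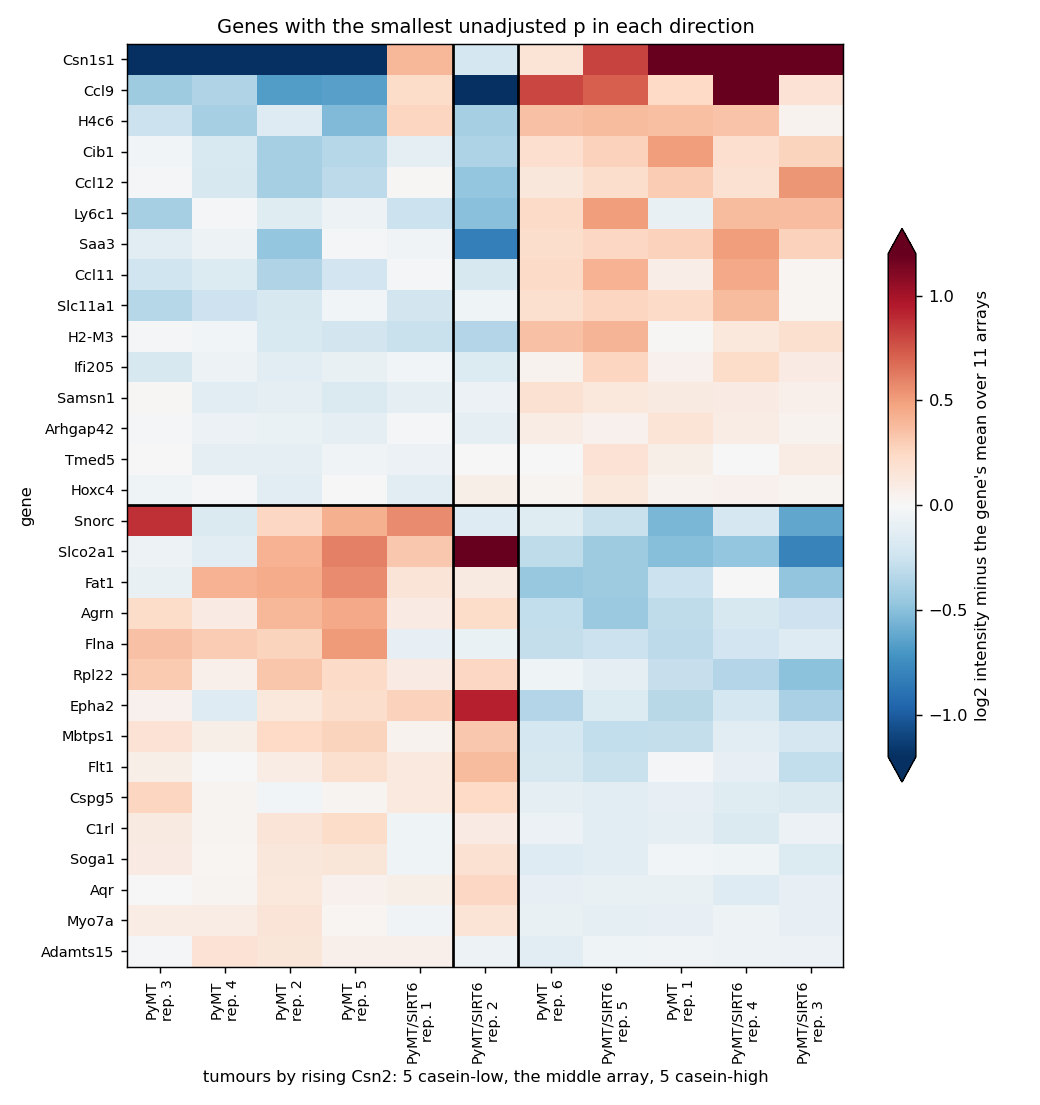
Log2 intensity minus each gene's mean over 11 arrays (colour, cut at 1.2 in size) for the 15 leading genes on each side, with tumours from left to right by rising Csn2. Vertical lines set off the middle array, PyMT/SIRT6 replicate 2, which stays with the casein-low arrays for most genes although its Csn2 lies between the classes.

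The middle array took no part in the fits that chose these genes, though it counted in the means behind the filter and the probe choice. It shows where 1 tumour of intermediate Csn2 lies. PyMT/SIRT6 replicate 2 fell within the casein-low range for 8 of the 15 higher genes and beyond it, on the side away from casein-high, for another 5. It fell in the casein-high range for the other 2. Among the 15 lower genes it was within the casein-low range for 7, beyond it for 7 and in the casein-high range alone for 1. Snorc, at 8.78, lay within both ranges and is counted here as casein-low. Slco2a1 at 11.02 and Epha2 at 8.95 were higher in it than in any other array, and Ccl9 at 7.92 and Saa3 at 7.46 lower. For 0 of the 30 genes did it lie in a gap between the classes. Its Csn1s1, at 10.58, did lie between most casein-low and all casein-high arrays.

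The tested regulators of the lactation programme, which included neither the prolactin receptor gene Prlr nor Stat5b, showed no common direction. Of 15 tested genes of lactogenic signalling 7 were higher and 8 lower in casein-high arrays, with a median of -0.01. Stat5a, the main STAT of mammary secretion, differed by -0.19 ± 0.17 and Elf5, an ETS factor of secretory progenitors, by 0.09 ± 0.18. Ccnd1, the cyclin D1 gene, stood at 12.01, 12.01, 12.58, 12.10 and 12.34 in casein-low and at 11.27, 11.65, 11.95, 11.37 and 11.78 in casein-high arrays. It did not overlap between classes, differed by -0.60 ± 0.16 (-0.63 ± 0.18 with genotype), and its other 2 probes differed by -0.44 and -0.41. The middle array had the highest Ccnd1 of all, at 13.46. Nfib, a nuclear factor I gene, differed by -0.46 ± 0.15.

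Genes of milk fat were not higher as a group. Of 29 tested genes of milk fat and lipid synthesis 9 were higher and 20 lower, with a median of -0.05. Vldlr, a lipoprotein receptor, stood at 10.23, 9.51, 9.75, 10.02 and 9.54 in casein-low and at 9.47, 9.37, 9.28, 9.45 and 9.20 in casein-high arrays, a difference of -0.45 ± 0.14 without overlap. Thrsp, a lipogenic nuclear protein gene, differed by 0.56 ± 0.20 and Plin2, which coats lipid droplets, by 0.28 ± 0.12, both with overlapping classes. The triglyceride enzyme gene Dgat2 (-0.97 ± 0.47) and the desaturase gene Scd1 (-0.54 ± 0.38) had wide errors. Btn1a1 (0.40 ± 0.35) and Xdh (0.17 ± 0.19), whose proteins sit on the milk fat globule, also overlapped. Fasn, the fatty acid synthase gene, was dim in both classes (-0.01 ± 0.05).

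Other parts of the secretory machinery differed little. Lactose synthesis and glucose supply had 1 of 10 genes higher (median -0.06), and 6 of 10 with genotype (median 0.01), and ion, metal and nutrient transport 9 of 14 (median 0.02). The water channel gene Aqp5 differed by -0.39 ± 0.17. In the list for ER translocation, folding and vesicle traffic 16 of 27 genes were higher, with a median of 0.05. Pdia6, a disulphide isomerase (0.19 ± 0.08), Srprb, a subunit of the signal recognition particle receptor (0.31 ± 0.13), and Sdf2l1, an ER chaperone component (0.32 ± 0.14, and 0.21 ± 0.14 with genotype), had an unadjusted p under 0.05, as had the claudin gene Cldn7 (0.21 ± 0.09). Tight junction genes were higher in 4 of 10 cases, and in 7 of 10 with genotype. Oxidative phosphorylation genes were higher in 24 of 32 with a median of 0.07 (0.04 with genotype). Ndufb2, a subunit of complex I, lay between 7.62 and 7.81 in casein-low and between 7.83 and 8.12 in casein-high arrays (0.25 ± 0.07). Cox5a, of complex IV, also had no overlap (0.20 ± 0.09), whereas Ndufb5 (0.29 ± 0.12) and cytochrome c, Cycs (0.26 ± 0.11), did overlap. Thus 2 of the 32 genes lay wholly higher without overlap, beside 0.516% of all features. With genotype the differences were 0.19 ± 0.07 for Ndufb2, 0.19 ± 0.10 for Cox5a, 0.20 ± 0.12 for Ndufb5 and 0.20 ± 0.12 for Cycs.

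**Figure D4:**
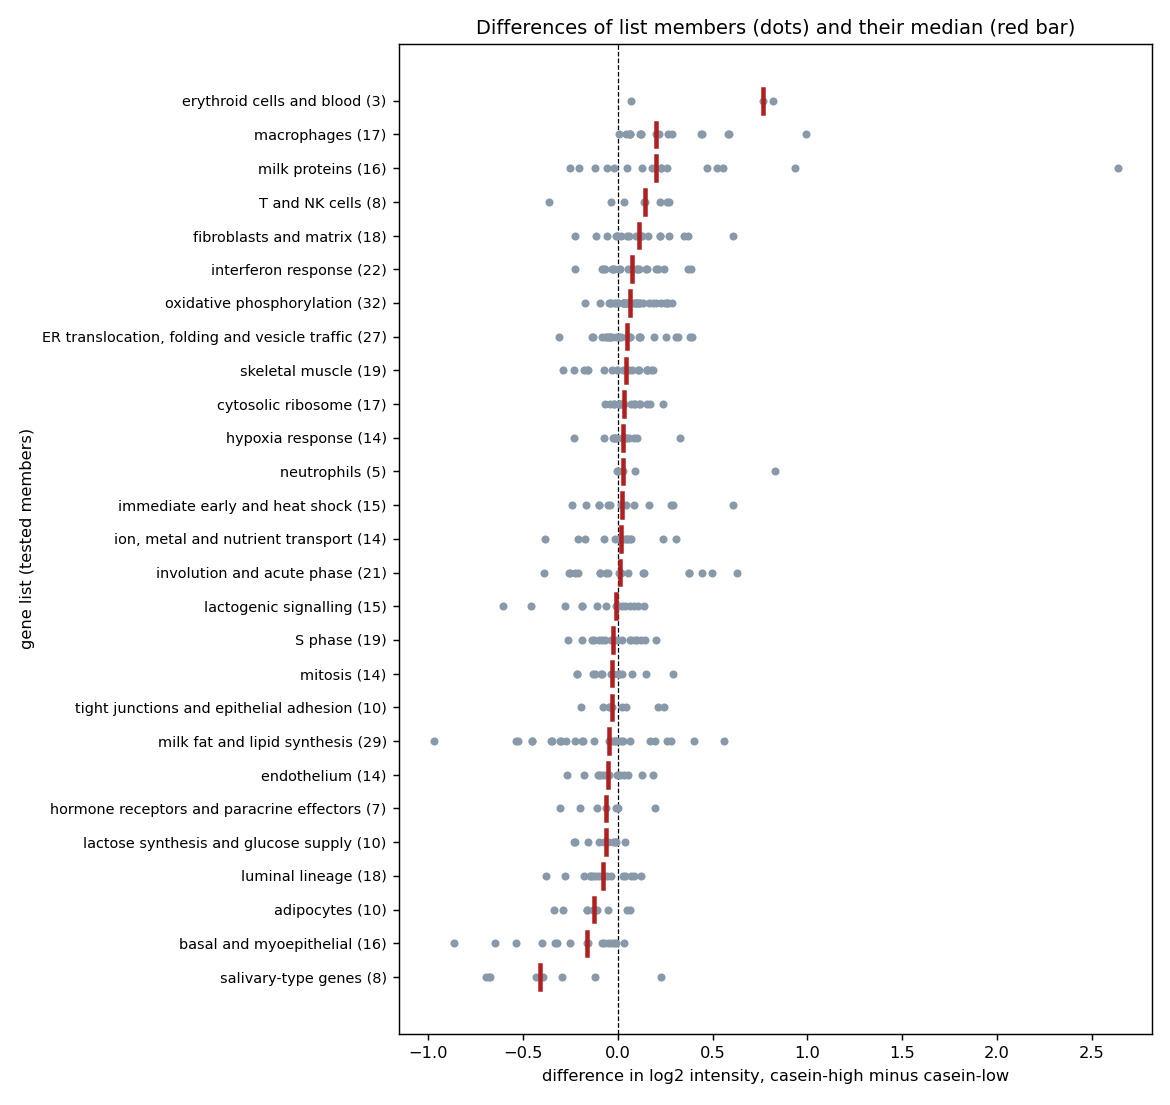
Difference in log2 intensity between casein-high and casein-low arrays (horizontal axis) for the tested members of 27 gene lists with at least 3 tested members (vertical axis, number in brackets). Dots are genes, red bars list medians and the dashed line the median of all 14726 features. Macrophage genes lie at or right of 0 and basal genes mostly left of it, and 0 genes pass after adjustment.

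Macrophage marker genes were higher in casein-high arrays, all 17 of 17 tested, with a median of 0.20 (16 of 17 and 0.16 with genotype), and 6 of them had an unadjusted p under 0.05. Over all features 49.4% were higher, and 3.31% were higher with an unadjusted p under 0.05. Lyz2, the macrophage lysozyme gene, stood at 11.20, 11.61, 10.62, 10.59 and 11.77 in casein-low and at 12.89, 12.23, 11.66, 12.50 and 11.46 in casein-high arrays. PyMT replicate 6 was highest, PyMT/SIRT6 replicate 3 overlapped the casein-low range, and the difference was 0.99 ± 0.30. Lyz1, a near-identical copy whose probe may share signal with it, differed by 0.58 ± 0.17. The Fc receptor gene Fcgr3 differed by 0.58 ± 0.16 and Ms4a7, a macrophage membrane protein gene, by 0.44 ± 0.12. Cd86 (0.29 ± 0.12) and the complement gene C1qb (0.26 ± 0.11) followed, and the mannose receptor gene Mrc1 differed by 0.44 ± 0.25 (0.23 ± 0.25 with genotype). Adgre1 and Csf1r, defining genes of macrophages, differed by 0.12 and 0.07, and Ctss by 0.00.

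The mean of the macrophage list ran from 9.13 to 9.49 in casein-high and from 8.98 to 9.18 in casein-low arrays, and its summed intensity from 21194 to 33195 and from 17453 to 23693. PyMT replicate 6 (9.40) and PyMT/SIRT6 replicates 5 (9.47) and 4 (9.49) stood above all other arrays, while PyMT replicate 1 and PyMT/SIRT6 replicate 3 were within the casein-low range. The genes Ccl9, Ccl11, Ccl12 and Slc11a1 were higher in the same class as these markers, and the part of macrophage content in their differences was not tested. In whole tumours, fewer cells of a type and less RNA per cell cannot be told apart. Without the 4 arrays high in muscle markers 16 of 17 genes of the list for macrophages were higher (median 0.13), without PyMT/SIRT6 replicate 5 the median was 0.12, and with Csn2 as a continuous measure it was 0.15 over all arrays, 0.09 within PyMT and 0.07 within PyMT/SIRT6 arrays.

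**Figure D5:**
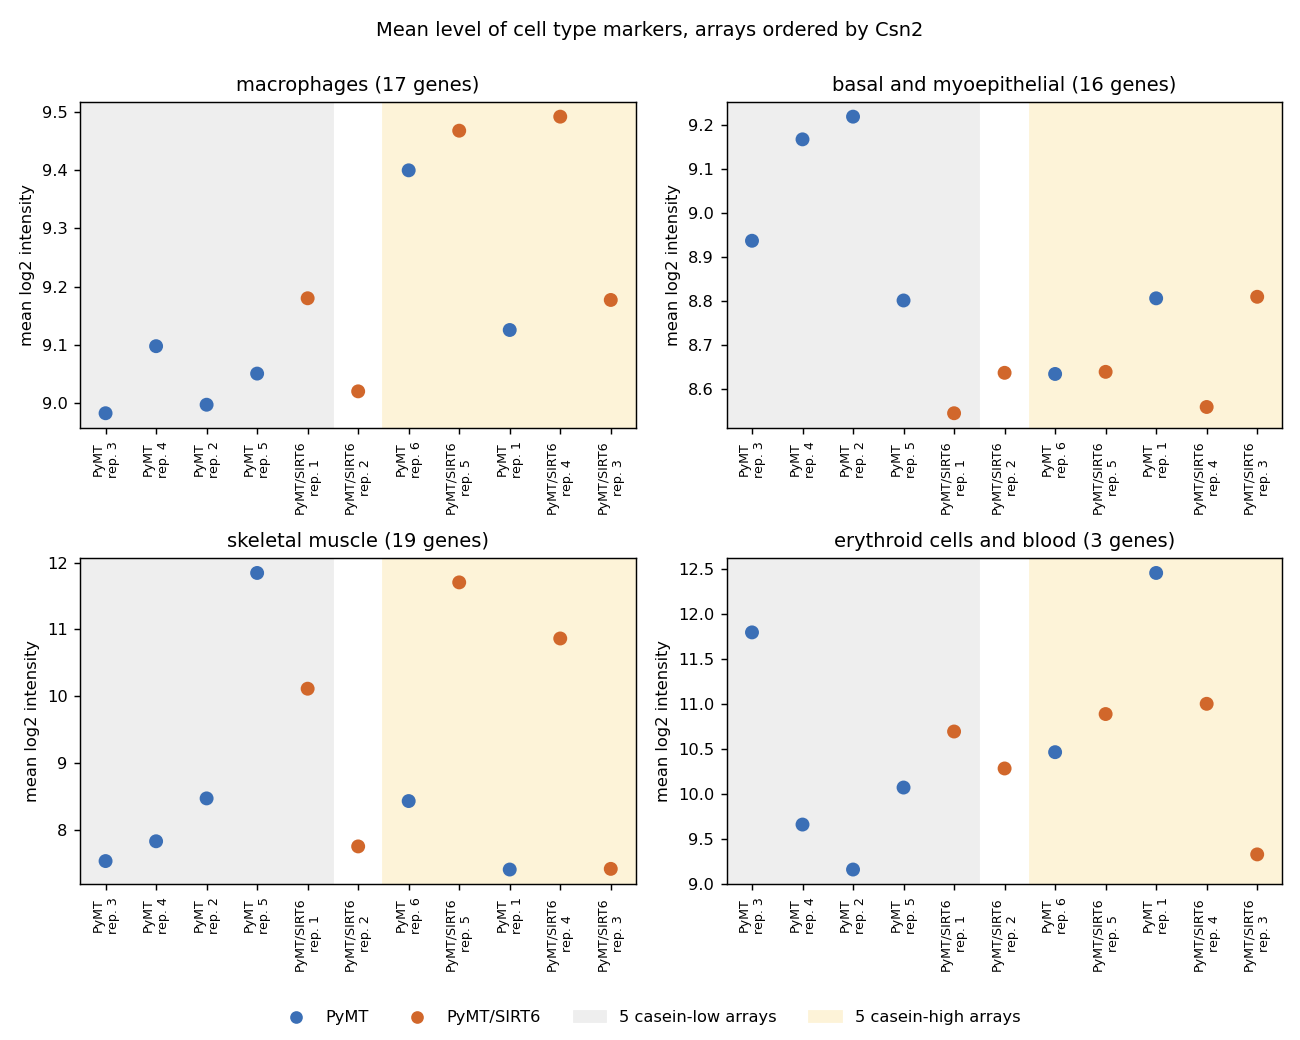
Mean log2 intensity of 4 marker lists (vertical axes, each with its own scale) in the 11 tumours ordered by Csn2, coloured by genotype and shaded by class. Macrophage markers are highest in 3 casein-high arrays, basal markers in 3 PyMT casein-low arrays, and muscle markers are high in 4 arrays split evenly between the classes.

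Other immune and inflammatory lists were less uniform. S100a8, a neutrophil calcium-binding protein gene, stood at 11.26, 11.21, 10.01, 10.61 and 11.44 in casein-low and at 11.55, 11.50, 12.26, 11.92 and 11.42 in casein-high arrays. Only PyMT/SIRT6 replicate 3 fell inside the casein-low range, and the difference was 0.83 ± 0.26, while the median of the 5 neutrophil genes was 0.03. T and NK cell genes were higher in 6 of 8 (median 0.14). Cd3d was dim and differed by 0.27 ± 0.11, or 0.14 ± 0.09 with genotype, and within the PyMT arrays its class means were 7.54 in casein-high and 7.50 in casein-low. The brightest Cd8b1 probe differed by -0.36 ± 0.15 where its other 2 probes differed by 0.05 and 0.23. Interferon response genes were higher in 15 of 22 (median 0.08), and in 19 of 22 with genotype (median 0.12). Among 21 genes of involution and acute phase 12 were higher, with Saa3, Saa2 (0.50 ± 0.16) and Timp1, a metalloprotease inhibitor gene (0.37 ± 0.16), at an unadjusted p under 0.05. B and plasma cells had 1 tested gene.

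Basal and myoepithelial markers went the other way, with 1 of 16 higher and a median of -0.16 (4 of 16 and -0.11 with genotype). The contractile genes Actg2 (-0.86 ± 0.43), Acta2 (-0.65 ± 0.45, and -0.31 ± 0.45 with genotype) and Mylk (-0.54 ± 0.41, and -0.31 ± 0.44 with genotype) had the largest differences and the basal keratin gene Krt5 differed by -0.32 ± 0.16 (-0.21 ± 0.16 with genotype), all with overlapping classes. The list mean ran from 8.56 to 8.81 in casein-high and from 8.54 to 9.22 in casein-low arrays. PyMT replicates 2, 4 and 3 were the highest at 9.22, 9.17 and 8.94, and PyMT/SIRT6 replicate 1, a casein-low array, was the lowest at 8.54. Against Csn2 as a continuous measure, the median of the basal and myoepithelial list was -0.14 within the PyMT arrays, with 6 of 16 genes positive, and 0.08 within the PyMT/SIRT6 arrays, with 10 of 16 positive. Agrn and Flna were lower in the same class as these markers, and the part of basal cell content in their differences was not tested.

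The luminal keratin gene Krt8 was bright in both classes, at 12.57 ± 0.23 in casein-high and 12.75 ± 0.46 in casein-low arrays (SD, n = 5 each). Luminal genes were higher in 5 of 18 (median -0.08). The list for hormone receptors and paracrine effectors had 2 of 7 higher (median -0.06, and -0.01 with genotype), with Egfr at -0.30 ± 0.13. Its 7 tested genes were Wnt4, Wnt5a, Tnfsf11, Egfr, Erbb2, Igf1 and Igf2. No steroid hormone receptor or prolactin receptor was among them. Fibroblast and matrix genes were higher in 13 of 18 (median 0.11), with the proteoglycan gene Lum at 0.61 ± 0.22 and Dpt at 0.37 ± 0.16. With genotype Dpt differed by 0.21 ± 0.14, and within the PyMT arrays its class means were 7.50 in casein-high and 7.48 in casein-low. Endothelial genes were higher in 5 of 14 (median -0.05) and adipocyte genes in 2 of 10 (median -0.12, and 0 of 10 with a median of -0.19 with genotype), with the lipase gene Lipe at -0.11 ± 0.05. Mitosis genes were higher in 6 of 14 (median -0.03), and S phase genes in 8 of 19 (median -0.02) or 12 of 19 with genotype (median 0.03). Hypoxia genes were higher in 8 of 14 (median 0.03), and in 13 of 14 with genotype (median 0.11). Ribosomal genes were higher in 13 of 17 (median 0.03). Immediate early and heat shock genes were higher in 9 of 15 (median 0.02), or 10 of 15 with genotype (median 0.06). Within the last list Dusp1 (0.61 ± 0.23) and Atf3 (0.29 ± 0.13) had an unadjusted p under 0.05.

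Marker genes of skeletal muscle and salivary-type genes were high in some arrays, and their source was not tested. The mean of 19 skeletal muscle genes ran from 7.41 to 11.70 in casein-high and from 7.54 to 11.84 in casein-low arrays, so high muscle marker levels occurred in both classes (median difference 0.05 with 11 of 19 higher, and -0.66 with 1 of 19 higher with genotype). With the muscle mean as a covariate all 30 leading genes kept their sign and an unadjusted limma p under 0.05. They were chosen by p in these same arrays, so this is no separate support. Salivary-type genes were higher in 1 of 8 with a median of -0.41 (-1.01 with genotype), and their mean was 11.56 in PyMT/SIRT6 replicate 1 against at most 9.34 in the other arrays. That array is the only casein-low PyMT/SIRT6 tumour, and without it the fit with genotype compares PyMT arrays alone. In that fit all 30 leading genes kept their sign and 26 had an unadjusted limma p under 0.05, again in arrays used to choose them. The 3 tested erythroid genes had a median of 0.77 with wide errors (Hba-a1 0.77 ± 0.78), and their mean was highest in PyMT replicate 1 (12.45), a casein-high array, and PyMT replicate 3 (11.79), a casein-low one.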

How the data were processed

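Total RNA of 11 mammary tumours was hybridised, 1 array each, to the Illumina Mouse WG-6 v2.0 platform, per the labels' protocols. The values the authors deposited are linear probe intensities. Background treatment and normalization were not given in the sources used here. Sorted values agreed between arrays within 1.08%, the lowest intensity was 116.7 and array medians were 157.5 to 157.6, so no scaling was added and no background subtraction was visible. The number of arrays limits the precision.

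Of 45281 probes 34885 had a single gene symbol, 18 several and 10378 none in the platform annotation, and 34807 matched RefSeq (GRCm38.p6) by gene identifier. Each of 19057 genes was represented by its brightest probe on average, and every probe lacking a single symbol was its own feature. Intensities were log2-transformed, and the lower 50% of 29453 features by mean (below an intensity of 158.6) and Csn2 were left out, leaving 14726.

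The class comparison used limma 3.58.1 under R 4.3.3 (lmFit, eBayes with intensity trend), without covariate and with genotype as a covariate, with Benjamini-Hochberg adjustment over all features and a threshold of 0.05. Differences are casein-high minus casein-low with limma's standard error. The fit was first run on simulated data with independent features, which checks the code only and says nothing about the differences reported here. Genotypes came from the labels. Replicate numbers follow deposit order and pair no samples.

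The members, the 28 gene lists (559 entries, 504 with a probe) and the tests were chosen with earlier results of these data known. Named genes were all milk genes, the 15 per direction with the smallest unadjusted p (clone and predicted names left out, since none passed), and up to 4 per other list with an unadjusted p under 0.05, beside well-known list members given as examples with their values already seen. Alternatives covered the filter, probes, scaling, background, variance model, array weights, the ranking gene, marker covariates and each array left out.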

Additional observations from a re-analysis of the deposited data

Results flagged for a closer look

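Among 148 sets of 5 values (a named gene in a class), 13 held an array far from the other 4 by Dixon's criterion at 95%, where chance gives about 1 in 20. In casein-low arrays, PyMT replicate 3 was low for Ltf at 10.87 (others from 13.98), for Egfr at 8.80 (others from 9.22) and for Cd3d at 7.30 (others from 7.55). PyMT replicate 2 was low for Saa3 at 7.82 (others from 8.16). PyMT/SIRT6 replicate 1 was high for Atf3 at 7.90 (others up to 7.77).

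In casein-high arrays, PyMT replicate 6 was high for Muc1 at 10.24 (others up to 9.83) and low for Adamts15 at 7.20 (others from 7.26). PyMT/SIRT6 replicate 3 was high for Pigr at 8.64 (others up to 7.82) and low for H4c6 at 8.59 (others from 8.89). PyMT/SIRT6 replicate 4 was high for Saa3 at 8.79 (others up to 8.56) and low for Aqr at 7.36 (others from 7.41). PyMT replicate 1 was high for Cib1 at 11.10 (others up to 10.88), and PyMT/SIRT6 replicate 5 was high for Hoxc4 at 7.50 (others up to 7.41).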

How the results depend on the processing

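No paired analysis was possible because replicate numbers follow deposit order only. Of 59 alternatives over both fits, those other than the Lalba ranking changed the sign of a leading or list gene (30 leading genes, Csn1s1 among them, and 29 list genes) 4 times (Lum 1, Dpt 3). Ranking by Lalba changed the sign for 34 of 59 such genes, and the cause was not tested. With genotype it did so for 52. That fit set PyMT replicate 5, a casein-low array, alone against the other PyMT arrays. All 59 were chosen by p under the Csn2 split in these arrays, which favours a kept sign in alternatives close to it.

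Counts without covariate (higher, lower) were 488 and 673 by unadjusted limma p under 0.05 and 76 and 116 without overlap. They were 889 and 1067, and 144 and 180, with no filter, where more features were tested; 744 higher, and 119 without overlap, with the lower 25% left out; 275 and 403, and 38 and 70, with the lower 75% left out, where fewer were tested. Array weights gave 783 and 1113. Ranking by Csn1s1 gave 777 and 1032, 148 and 239 without overlap, and by adjusted p 3 higher (H2bc21, Rnu6 and an unnamed probe) and 1 lower (Col4a1). By adjusted p, Csn1s1 was the 1 feature with continuous Csn2 over 11 arrays and within PyMT arrays (284 and 228 by unadjusted p). In alternatives chosen after seeing the data, leaving out the 4 muscle-high arrays gave 221 and 419, and 570 and 780 without overlap of fewer arrays; leaving out the 2 arrays next to the middle gave 1 by adjusted p (Csn1s1), and 285 and 428 without overlap.

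With genotype, 330 and 405 by unadjusted p became 692 and 771 with no filter, 546 higher with the lower 25% and 156 and 216 with the lower 75% left out, 505 higher with every probe, 721 and 900 ranked by Csn1s1, and 643 lower with the T and NK cell mean. Ranking by Lalba gave 851 higher and 10 by adjusted p, including the muscle genes Ttn, Ryr1, Myh1 and Flnc. The Lalba fit set PyMT replicate 5 alone against the other PyMT arrays, as no PyMT/SIRT6 array was in its low class. Its counts therefore describe 1 tumour, which had the highest skeletal muscle mean of all arrays, at 11.84. Continuous Csn2 gave 1 by adjusted p (Csn1s1). Without the 4 muscle-high arrays there were 200 higher, and without the 2 arrays next to the middle 531 higher and 10 by adjusted p, among them Csn1s1, Klk6, Klk7 and Fosb. The fit without the 2 arrays next to the middle set PyMT replicate 1 alone against the casein-low PyMT arrays. It held no casein-low PyMT/SIRT6 array, so its counts also describe 1 tumour. The cause of the shifts in the other counts was not tested.

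Leaving out each array in turn gave 0 to 0 by adjusted p in both fits. Counts by unadjusted p ran from 301 to 852 higher and 418 to 1279 lower, and with genotype from 245 to 606 and 283 to 962; the highest came without PyMT replicate 3, and the lowest without covariate came without PyMT replicate 5 (301) and PyMT replicate 2 (418, with 318 higher). Without overlap they ran from 102 to 226 and 136 to 461, since fewer arrays separate more easily. The number of arrays and unsubtracted background in dim probes limit these values.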

Other observations

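A few genes stood apart in PyMT/SIRT6 replicate 1, the single casein-low PyMT/SIRT6 array, and are named after their values were seen. That cell of the design holds 1 array, so these values show a single tumour and no dependence on genotype is read from them. Klk1, a tissue kallikrein gene, was at 9.32 there and between 7.12 and 7.68 on the other 10 arrays, and Prol1, a salivary and lacrimal protein gene, was at 11.59 against 7.26 to 9.59. Them5 was at 10.21 there and at 10.44 in the middle array, against 7.76 to 8.45 elsewhere.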
